A study of Mus musculus with 15 samples.

Results

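The hairpins against Siva were compared here with a control hairpin that had been through the same antibiotic selection. The comparison holds 11 of the 15 arrays of the study, 8 with shSiva1 or shSiva2 and 3 with shGFP, and the 4 unselected shLacZ arrays were left out. All RNA came from LSZ2 and LSZ4, both mouse non-small cell lung cancer lines. Each line gave 4 shSiva arrays, 2 per hairpin. Of the shGFP arrays 1 was from LSZ2 and 2 were from LSZ4, so the LSZ2 control has no replicate of its own. Cells were transduced with virus, shGFP in the vector pLKO.1 and the Siva hairpins in pLKO TRC2.0, and both arms had 3 days of puromycin. RNA was taken 2 days after plating, and 200 ng was amplified and labelled with Cy3. The genotype of the lines was not used here, and the labels do not say whether LSZ2 and LSZ4 are clones. All shGFP arrays lay on 1 slide and all shSiva arrays on the other, so slide, scan and vector version cannot be told apart from the Siva hairpins.

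Siva, encoded by Siva1, is a small zinc-binding protein that was found as a partner of the receptor CD27. Its gene is a transcriptional target of p53, and the protein has been tied to apoptosis and, in lung tumour cells, to signalling through mTOR and to autophagy. RNA interference with a short hairpin lowers the mRNA that the hairpin matches, and 2 hairpins of different sequence are used because each can also lower other mRNAs. Levels below are log2 signals less the 75th percentile of the array, and changes are log2 differences between shSiva and shGFP at equal line. A gene is called where the limma test gave an adjusted p under 0.05 over the 23213 genes tested.

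The fall of the target was read on a probe of 60 bases that covers 852 bases of genome, and so crosses an intron. It lies on the plus strand at chr12:113885242-113886093 (mm9), and its sequence is shown because it measures the target of both hairpins.
Siva1 probe: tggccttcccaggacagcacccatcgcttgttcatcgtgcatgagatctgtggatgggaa
The Siva1 level was 5.53 on the LSZ2 shGFP array and 6.75 on both LSZ4 shGFP arrays. In LSZ2 it was 2.98 and 3.29 with shSiva1 and 3.83 and 3.72 with shSiva2. In LSZ4 the levels were 2.56 and 3.40 with shSiva1 and 3.70 and 4.35 with shSiva2. Every shSiva array lay below every shGFP array. Siva1 fell by 2.81 (SE 0.37, adjusted p = 0.00347, limma), which leaves 14.3% of the shGFP level. Another probe of the gene, at chr12:113887275-113887334, gave a change of -2.54 (SE 0.35). The change was -3.23 with shSiva1 and -2.38 with shSiva2, and the difference between the hairpins did not pass the test (adjusted p = 0.0590, limma). Without both LSZ4 shGFP arrays the change was -2.07 and the call was lost (adjusted p = 0.678).

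Brightness differed between the control arrays. The 75th percentile of signal was 755 on the LSZ2 shGFP array, 354 and 381 on the LSZ4 shGFP arrays, the lowest of the 11, and 416 to 804 on the shSiva arrays. The share of spots well above background ran from 49.0% to 60.6%, and none was saturated. Replicates of the groups used correlated at 0.986 to 0.996 (Pearson, across probes, which are not independent), and no pair held identical values. In LSZ4 the 7738 brightest genes had a median change of -0.55, against 0.09 in LSZ2. Both LSZ4 controls were dimmer than every shSiva array, so dimness and hairpin cannot be told apart in LSZ4. With brightness as a covariate the calls in LSZ4 went from 1518 (1039 lower) to 129 (30 lower), and those over both lines from 1159 to 1258. This fit does not separate dimness from hairpin in LSZ4, and the part of dimness in the results was not tested. Krt8, Krt18, Krt19 and Cdh1, which mark epithelium, were well above background on all 11 arrays. Of the lung markers, the thyroid transcription factor Nkx2-1 and the surfactant genes Sftpa1 and Sftpc were well above background on none of them, as were 10 of 28 in all. Another 12 were above it on all 11, among them the water channel gene Aqp5, Lamp3, Abca3, Foxa1, Foxa2 and the surfactant gene Sftpd. The gut regulators Hnf4a and Cdx2 were above it on all 11. Of 26 markers of blood, endothelium and fibroblasts 10 were above background on none, Cd8a, Cdh5, Pdgfra and Pdgfrb among them, and 10 on all 11, among them Itgam, Cd14, Csf1r, Cd4 and Kdr. The summed linear level of the 26 ranged from 25.9 to 43.7 in shSiva and from 32.2 to 50.3 in shGFP. In bulk RNA, fewer cells of a type and less RNA per cell cannot be told apart.

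Over all genes 1159 were called, 4.99% of those tested. Of these, 455 rose (1.96%) and 704 fell (3.03%), with 355 of the rises and 334 of the falls 2-fold or more. All tested genes had a median change of -0.20. All 8 shSiva arrays lay above every shGFP array of their line for 1202 genes (5.18%), and below them for 2891 genes (12.5%). The number of calls rests on the LSZ4 controls: without LSZ4 shGFP replicate 1 there were 125 calls, without replicate 2 there were 114, and without both there were 9. Leaving out LSZ2 shSiva1 replicate 1 gave 467, LSZ4 shSiva1 replicate 2 gave 521, LSZ2 shSiva2 replicates 1 and 2 gave 677 and 521, and LSZ4 shSiva2 replicates 1 and 2 gave 485 and 1783. With the line and hairpin group as a random block, which allows for replicates of a group being alike, 158 genes were called (0.681%), 136 higher and 22 lower. Of the 88 called genes that were named by rule or as list members, 22 kept their call without each array in turn and with the random block, 19 higher and 3 lower. After normexp background correction 15 of the 22 kept it and Cxcl10, Ecscr, Gata3, Ms4a3, Psmb9, Skap1 and Tgfb2 did not. Cxcl10, Ecscr, Gata3, Ms4a3 and Skap1 were above background in only 1 arm and passed the filter on dim probes through that arm. With a single mean for each line and hairpin group none of the 22 was called (adjusted p from 0.127), and without both LSZ4 shGFP arrays 5 were, namely Aass, Fam20a, Gstm2, Skap1 and Sphk1. The accounts below open with the 22.

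Among the 12 largest rises, chosen by the rule for named genes, that of Timp3 came first. Timp3, an inhibitor of matrix metalloproteinases (probe at chr10:85811696-85811755), was at -3.04 in LSZ2 shGFP and at -6.36 and -6.39 in LSZ4 shGFP, and at 1.44, 2.65 and 3.80 (lowest, median, highest) over the 8 shSiva arrays. It was above background on 1 of 3 shGFP arrays and on all shSiva arrays, and it rose by 7.72 (SE 0.65, adjusted p = 0.000345). The array LSZ4 shSiva1 replicate 2, at 2.14, stood apart from the other LSZ4 shSiva arrays. Thbs1 (probe at chr2:117952585-117952644), which encodes thrombospondin-1, a matricellular protein that can release transforming growth factor beta (TGF-beta) from its latent form, was at -2.10, -4.56 and -4.25 with shGFP and at 0.44, 1.46 and 2.14 with shSiva. Its rise was 4.97 (SE 0.44, adjusted p = 0.000433). For both genes the groups did not overlap. In LSZ2, where the control was above background, the changes of Timp3 and Thbs1 were 5.74 and 3.55. In LSZ4 neither control array was above background, and Timp3 was at least 115-fold and Thbs1 at least 51.6-fold higher. The rise over both lines rests on these unmeasured control levels. The test of a difference between the lines called neither gene, but it rests on the same unmeasured levels.

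**Figure D1:**
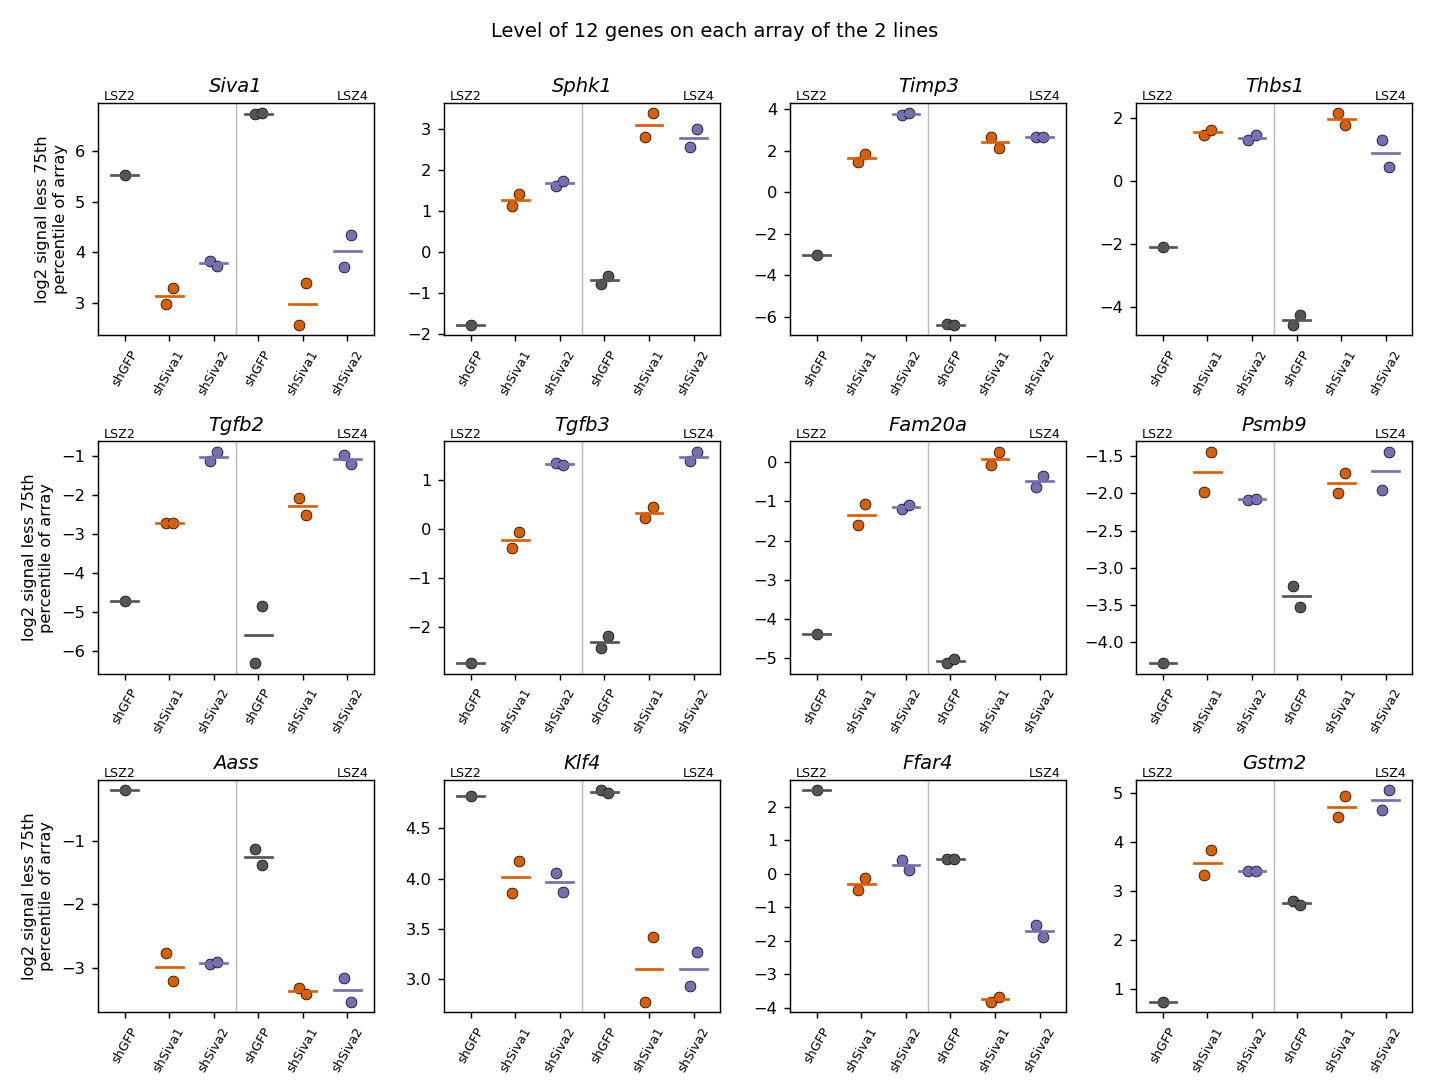
Level of 12 genes (log2 signal less the 75th percentile of the array) on each of the 11 arrays, with points for arrays and lines for group means, grey for shGFP, orange for shSiva1 and purple for shSiva2, LSZ2 left and LSZ4 right of the grey divider. Siva1, Aass, Klf4 and Ffar4 sit lower with both Siva hairpins in both lines and the other 8 genes sit higher. For Timp3, Thbs1, Sphk1, Fam20a, Tgfb2, Aass and Ffar4 this agreement was required for being picked among the largest rises or falls.

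The sphingosine kinase gene Sphk1 (probe at chr11:116397908-116397967), whose product makes the lipid mediator sphingosine 1-phosphate, had a small error for its change. Its levels were -1.78, -0.77 and -0.57 with shGFP and 1.12, 2.16 and 3.39 (lowest, median, highest) with shSiva, and it rose by 3.48 (SE 0.21, adjusted p = 4.65e-05), 11.2-fold. The change was 3.46 with shSiva1 and 3.50 with shSiva2. Fam20a, a pseudokinase of the secretory pathway that aids phosphorylation of secreted proteins, was at -4.38, -5.13 and -5.02 with shGFP and at -1.61, -0.85 and 0.26 with shSiva. It rose by 4.23 (SE 0.32, adjusted p = 0.000168). Neither gene's groups overlapped. Thbs1, Fam20a and Tgfb2, like Timp3, were well above background on the LSZ2 shGFP array and on neither LSZ4 shGFP array, where Fam20a was at least 17.3-fold and Tgfb2 at least 6.11-fold higher with shSiva.

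Both Tgfb2 and Tgfb3, ligands of the TGF-beta receptors, rose. Tgfb2 was at -4.72, -6.31 and -4.84 with shGFP and at -2.73, -1.65 and -0.91 with shSiva, and rose by 3.49 (SE 0.52, adjusted p = 0.00684). Tgfb3 was at -2.74, -2.44 and -2.18 with shGFP and at -0.40, 0.87 and 1.56 with shSiva, and rose by 3.23 (SE 0.42, adjusted p = 0.00348). For both, all 4 shSiva2 arrays lay above all 4 shSiva1 arrays, and the difference between hairpins was called (adjusted p = 0.00867 and 0.000154). Of 30 genes tested in the list of TGF-beta and bone morphogenetic protein signalling 3 rose and 0 fell, 10% beside 4.99% of all genes. The list's median change was 0.52 above that of all genes. The third was Pmepa1, a TGF-beta target that feeds back on the pathway, at 1.18 (SE 0.21, adjusted p = 0.0152). Its call was lost without LSZ4 shGFP replicate 1 or 2 (adjusted p = 0.0780 and 0.0623).

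The list of mesenchymal and matrix genes had a median 0.36 above that of all genes. Of its 35 tested genes 4 were higher and 1 lower, 14.3% beside 4.99% of all. Besides Timp3 and Thbs1 these were Fn1 (fibronectin, 2.51, SE 0.57) and Ccn1 (a matricellular protein, 1.38, SE 0.26), while Vcan (the proteoglycan versican) fell by 0.76 (SE 0.16). Fn1 rose by 3.45 with shSiva1 and by 1.57 with shSiva2. These 3 calls were lost with the random block (adjusted p = 0.0763, 0.0582 and 0.181) and without either LSZ4 shGFP array (adjusted p up to 0.177 for Fn1 and Vcan, and 0.0875 for Ccn1). Of integrin and laminin subunits 1 of 19 rose, 5.26% beside 4.99% of all genes. It was Itgb6 at 1.40 (SE 0.31), which encodes the beta subunit of an integrin that activates latent TGF-beta. Its adjusted p was 0.187 with the random block.

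Among genes of retinoid and eicosanoid metabolism 3 of 25 rose and 1 fell, 16% beside 4.99% of all genes. Ptgs1, which encodes cyclooxygenase-1, was at -0.74, -1.21 and -1.19 with shGFP and at 1.57, 1.96 and 2.86 with shSiva. It rose by 3.04 (SE 0.27, adjusted p = 0.000433) and its groups did not overlap. Rdh10, which oxidises retinol on the way to retinoic acid, rose by 1.68 (SE 0.26), and Pla2g7, a phospholipase that cleaves platelet-activating factor, by 3.60 (SE 0.70). Rdh10 lost its call without LSZ4 shGFP replicate 1 (adjusted p = 0.0555) and Pla2g7 without either (0.0974 and 0.131). The fall was that of Ffar4, a fatty acid receptor that is described with the gut genes below.

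Of 23 tested genes of antigen processing for MHC class I 5 rose and 0 fell, 21.7% beside 4.99% of all genes. The 5 encode the light chain B2m, both subunits of the peptide transporter, Tap1 and Tap2, and the immunoproteasome subunits Psmb8 and Psmb9. This system cuts proteins in the cytosol into peptides and loads them on MHC class I molecules for display to T cells, and interferons raise its genes. The upstream stretches are shown because these genes moved together and because a match to an interferon response element was looked for in them. They are the 250 bases before the start of each gene from RefSeq (GRCm38.p6), read along the gene, with matches to GAAA, any 2 bases and GAAA again, on either strand, in capitals.
B2m, chr2:122147437-122147686, plus strand: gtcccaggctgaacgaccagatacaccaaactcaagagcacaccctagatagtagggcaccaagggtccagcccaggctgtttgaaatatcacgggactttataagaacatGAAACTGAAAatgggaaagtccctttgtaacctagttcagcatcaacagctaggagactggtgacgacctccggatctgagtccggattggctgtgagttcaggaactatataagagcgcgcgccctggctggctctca
Psmb9, chr17:34187331-34187580, minus strand: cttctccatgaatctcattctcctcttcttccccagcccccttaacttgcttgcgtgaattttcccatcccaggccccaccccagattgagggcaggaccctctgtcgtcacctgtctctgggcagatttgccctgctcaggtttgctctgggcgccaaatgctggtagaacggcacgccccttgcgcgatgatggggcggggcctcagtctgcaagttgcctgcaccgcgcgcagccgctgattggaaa
Cxcl10, chr5:92348890-92349139, minus strand: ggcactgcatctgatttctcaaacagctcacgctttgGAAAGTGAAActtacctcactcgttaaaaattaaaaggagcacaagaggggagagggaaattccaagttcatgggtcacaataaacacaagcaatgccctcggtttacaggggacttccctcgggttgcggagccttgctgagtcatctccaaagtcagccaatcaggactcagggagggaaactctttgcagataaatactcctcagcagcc
The match begins at position -139 in B2m and at -213 in Cxcl10, and the Psmb9 stretch has none. Psmb9 and Tap1 are read in opposite directions, and their 250-base windows share 225 bases. Of the 10 genes called higher in the antigen processing and interferon lists 6 were in the RefSeq table, and 2 of these held a match, against 3.04% of 27025 genes with such a window. Both lists were made of genes that interferons raise, so a share above that of all genes says nothing about these arrays. Cxcl10 also passed the filter on dim probes through shSiva arrays only. A match is a description of these letters only.

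Psmb9 was at -4.29, -3.25 and -3.53 with shGFP and at -2.08, -1.97 and -1.44 (lowest, median, highest) with shSiva, and rose by 1.90 (SE 0.22, adjusted p = 0.00202). Tap2 was at -0.23, 1.34 and 1.25 with shGFP and at 2.22, 2.69 and 3.33 with shSiva, and rose by 2.05 (SE 0.28, adjusted p = 0.00439). The groups of both genes did not overlap, and both kept their call without each array in turn. B2m was at 4.39, 3.49 and 3.44 with shGFP and at 4.16, 4.69 and 4.92 with shSiva. It rose by 0.73 (SE 0.16, adjusted p = 0.0296), above the shGFP arrays of its line on 8 of 8 arrays, although the LSZ2 shGFP array lay inside the range of the LSZ4 shSiva arrays. Tap1 rose by 1.22 (SE 0.31), and Psmb8, not well above background on any shGFP array, was at least 2.38-fold higher (adjusted p = 0.0354). Psmb8 passed the filter on dim probes through shSiva arrays only. The calls of B2m, Tap1 and Psmb8 were lost with the random block (adjusted p = 0.182, 0.149 and 0.0886) and without either LSZ4 shGFP array (up to 0.193).

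**Figure D2:**
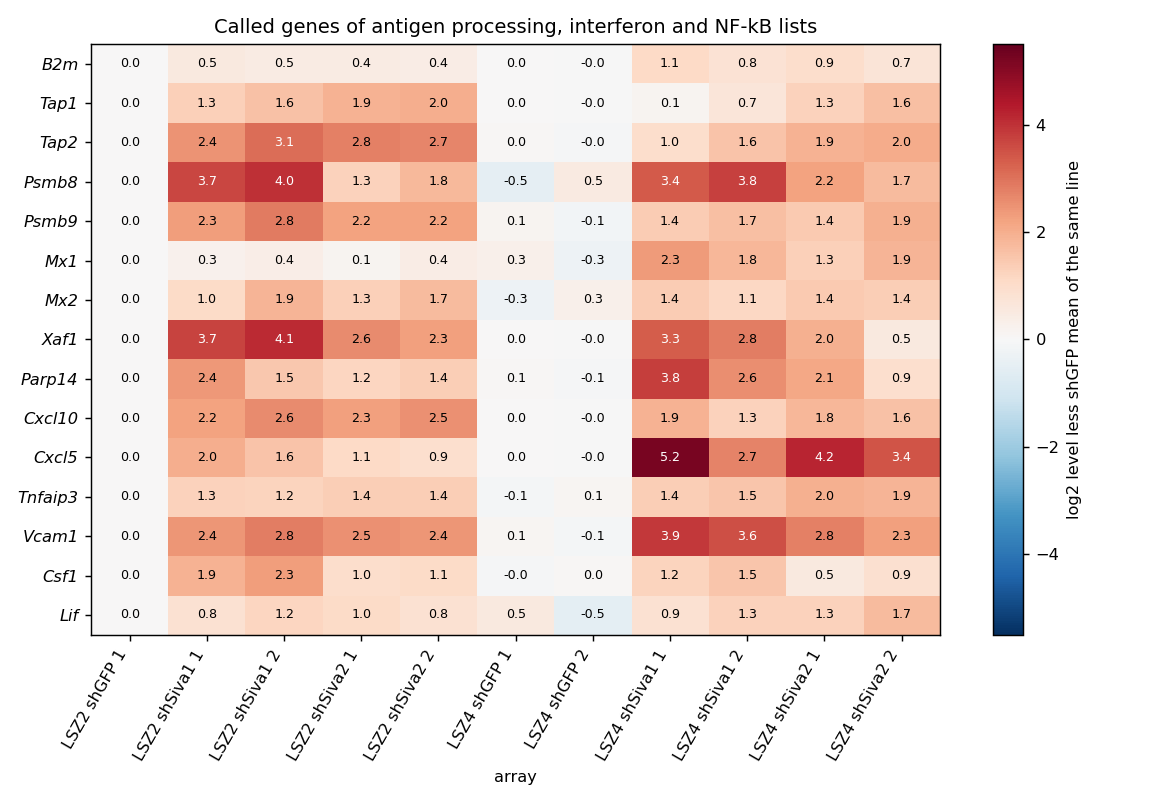
Log2 level of 15 called genes on each of the 11 arrays, less the mean of the shGFP arrays of the same line (colour scale and printed values). The single LSZ2 shGFP array is 0 by construction and the 2 LSZ4 shGFP arrays lie on both sides of 0, and all 8 shSiva columns are above 0 for every gene shown.

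Of 39 interferon-stimulated genes tested 7 rose and 1 fell, 20.5% beside 4.99% of all genes. The list's median was 0.98 above that of all genes, and 0.52 above it with the 7 genes that 1 arm did not measure set to their bound. Besides Psmb8 and Psmb9 the rises were those of Cxcl10, Mx1, Mx2, Xaf1 and Parp14. Cxcl10, which encodes a chemokine for T cells, was above background on 3 shSiva arrays and on no shGFP array. It passed the filter on dim probes only through these 3 arrays, and Mx2 and Xaf1 also passed only through shSiva arrays. Rises of such genes are not independent of the filter. The adjusted p of Cxcl10 was 0.00119 (limma), but its bound gives no fold. Mx2, an antiviral GTPase, was higher by at least 1.14-fold, and Xaf1, which antagonises the caspase inhibitor XIAP, at least 2.16-fold. Mx1 rose by 1.26 (SE 0.31) and Parp14, an ADP-ribosyltransferase, by 2.07 (SE 0.49). The GTPase gene Tgtp1 fell by 1.03 (SE 0.27) and was well above background on only 3 of 8 shSiva arrays. Of the 8, Cxcl10 and Psmb9 kept their call with the random block, and none did after normexp background correction. With shSiva1 21 of the list were higher and 4 lower, beside 30.1% of all genes called, and with shSiva2 8 were higher and 1 lower, beside 11%. Whether the list differs between hairpins was not tested.

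Targets of NF-kB, the inflammatory transcription factor that tumour necrosis factor activates, gave 6 rises and 1 fall among 30 tested genes. That is 23.3%, beside 4.99% of all genes. The rises include that of Cxcl10, also in the interferon list, which passed the filter on dim probes through shSiva arrays only. Its rise is not independent of the filter. The list's median was 0.85 above that of all genes, or 0.28 with 3 genes at their bound. Vcam1, an adhesion molecule for leukocytes, was at 0.47, 0.75 and 0.55 with shGFP and at 2.90, 3.12 and 4.53 (lowest, median, highest) with shSiva. It rose by 2.90 (SE 0.31, adjusted p = 0.00120). Tnfaip3, which encodes the feedback inhibitor A20, was at 1.32, -0.03 and 0.15 with shGFP and at 1.43, 2.27 and 2.69 with shSiva, a rise of 1.54 (SE 0.17, adjusted p = 0.00158). Neither overlapped, and both kept their call without each array in turn. The chemokine gene Cxcl5 rose by 2.96 (SE 0.56), Csf1, a macrophage growth factor, by 1.24 (SE 0.31) and the cytokine gene Lif by 1.16 (SE 0.25). The complement gene C3 fell by 1.24 (SE 0.27). These 4 lost their call with the random block (adjusted p = 0.144, 0.139, 0.200 and 0.167) and without LSZ4 shGFP replicate 2 (0.143, 0.193, 0.185 and 0.204).

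Since Siva1 is itself a p53 target, the other targets were examined. Of 41 tested 7 rose and 1 fell, 19.5% beside 4.99% of all genes. Their median was 0.40 above that of all genes. Gadd45a, a stress gene that acts in growth arrest and DNA repair, was at -1.05, -0.42 and -0.61 with shGFP and at 0.89, 1.12 and 1.77 with shSiva. Its rise was 2.04 (SE 0.22, adjusted p = 0.00119), without overlap, and it held without each array in turn. The other rises were those of Fas, a death receptor (1.98, SE 0.40), Trp53inp1, which aids p53 in cell death and autophagy (2.33, SE 0.51), Pmaip1, which encodes the BH3-only protein Noxa (1.51, SE 0.38), Eda2r (0.93, SE 0.22), Plk2 (0.73, SE 0.18) and Tap1. Fdxr, which encodes ferredoxin reductase, fell by 1.03 (SE 0.25). Except for Gadd45a, these calls were lost with the random block (adjusted p 0.121 to 0.237). Without LSZ4 shGFP replicate 1 or 2 the adjusted p of Fas was 0.120 or 0.172, and that of Trp53inp1 0.139 or 0.196. The change of Trp53inp1 was 0.87 in LSZ2, where the control is a single array, and 3.21 in LSZ4. The test of a difference between the lines did not call it.

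The core p53 genes Cdkn1a, Mdm2, Bbc3 and Bax were not called. Their changes were 0.20 (SE 0.26) for the cell cycle inhibitor Cdkn1a, 0.49 (SE 0.20) for the p53 ligase Mdm2, 0.19 (SE 0.33) for Bbc3, which encodes Puma, and -0.18 (SE 0.32) for Bax. Trp53 itself had a change of -0.44 (SE 0.25, adjusted p = 0.267). Of 36 genes of the Bcl-2 family, caspases and death receptors 2 rose and 1 fell, 8.33% beside 4.99% of all genes. The rises were those of Pmaip1 and Fas. The fall was that of the adaptor gene Fadd, at -0.97 (SE 0.24, adjusted p = 0.0425), on which LSZ2 shSiva1 replicate 2 stood apart. Of 11 tested genes in the list of Siva1 and reported partners of its protein only Siva1 was called.

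The lists for mTOR and for autophagy had few calls. Of 45 genes of the mTOR complexes, their regulators and effectors 1 rose and 2 fell, a share of 6.67% beside 4.99% of all genes. Ddit4l, an inhibitor of mTOR complex 1 signalling, rose by 2.35 (SE 0.57). Deptor, which encodes an inhibitor that binds both mTOR complexes, fell by 1.05 (SE 0.26), and Depdc5, part of the GATOR1 complex that restrains mTORC1 when amino acids are short, fell by 0.71 (SE 0.17). These 3 calls were lost with the random block (adjusted p = 0.0952, 0.220 and 0.216) and without LSZ4 shGFP replicate 2 (0.212, 0.157 and 0.242). Of 42 autophagy genes 2 rose, 4.76% beside the same 4.99%. Wipi1, which encodes a phosphoinositide-binding protein of forming autophagosomes, was at 0.29, 0.12 and 0.33 with shGFP and at 1.27, 1.47 and 1.73 with shSiva, a rise of 1.20 (SE 0.15, adjusted p = 0.00253) that was 1.20 with each hairpin. Atg12, a ubiquitin-like conjugation protein, rose by 0.87 (SE 0.16), and its adjusted p was 0.109 without LSZ4 shGFP replicate 2. Of 48 lysosomal genes 1 rose, 2.08% beside the same 4.99%. It was the mannosidase gene Manba, at 1.10 (SE 0.20), with an adjusted p of 0.111 without the same array.

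**Figure D3:**
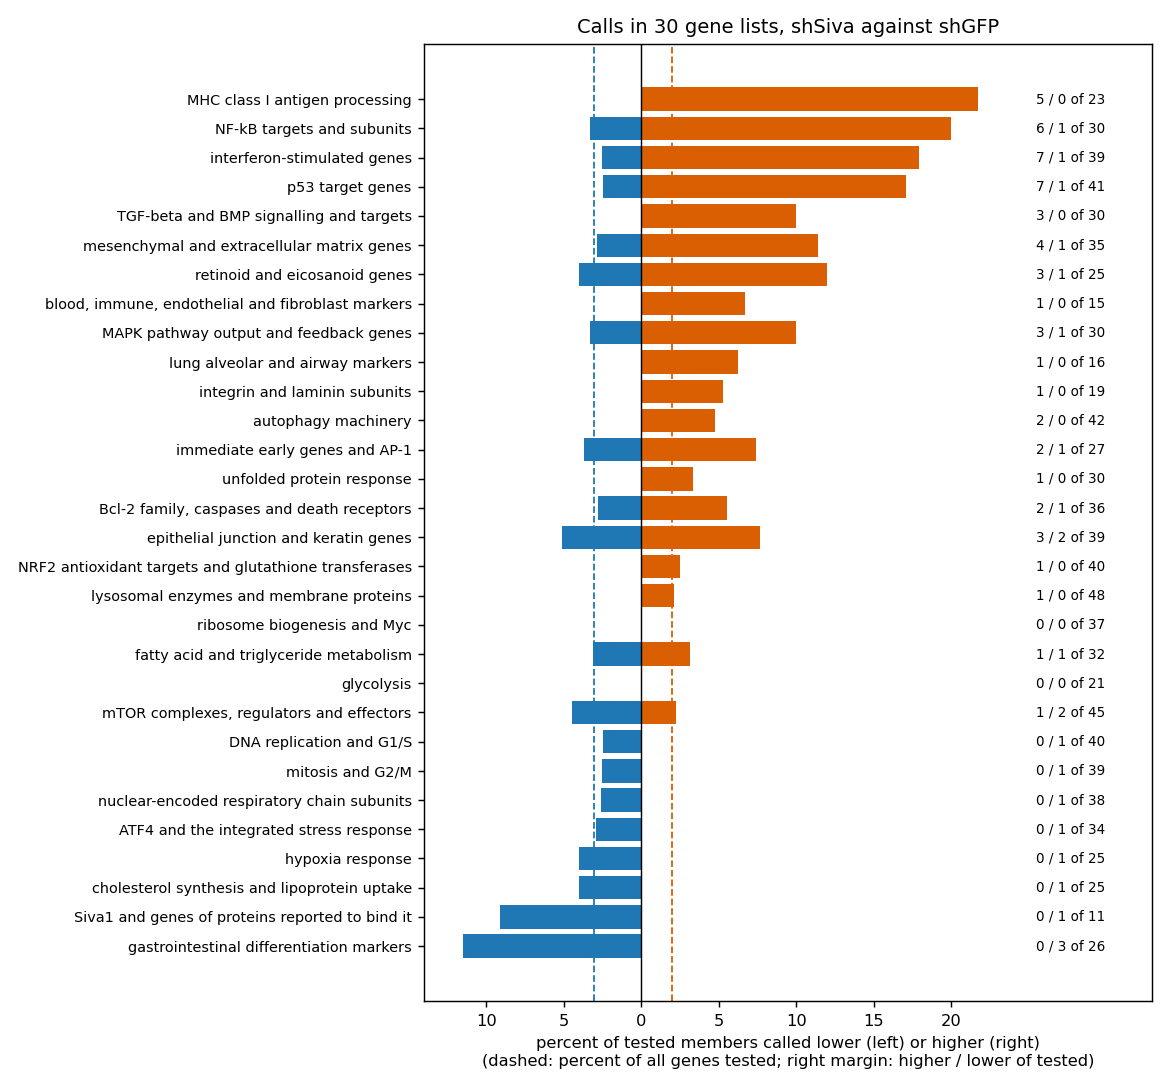
Share of the tested members of 30 gene lists that were called higher (right, orange) or lower (left, blue) in shSiva against shGFP at an adjusted p under 0.05, with the numbers in the right margin. Dashed lines mark the share over all 23213 genes, 1.96% higher and 3.03% lower, and the lists of MHC class I, NF-kB, interferon and p53 genes extend farthest to the right.

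Few genes of growth and metabolism were called, 0% to 6.25% of each list beside 4.99% of all genes. Of 37 genes of ribosome biogenesis with Myc 0 were called by limma and 13 had an unadjusted p under 0.05, all lower, beside 26.8% of all genes in either direction. Their median change lay 0.32 below that of all genes, and 11 were called lower with shSiva1 against shGFP, as were 11 of 40 DNA replication and 9 of 39 mitosis genes, beside 20.4% of all genes. Of 21 glycolysis genes 0 were called and 7 had an unadjusted p under 0.05, 1 higher and 6 lower, beside the same 26.8%. Of 40 DNA replication and 39 mitosis genes 1 each fell, E2f2, a transcription factor of S phase entry, at -0.92 (SE 0.23) and Cdc20, the activator of the anaphase-promoting complex, at -0.98 (SE 0.24). The single calls elsewhere were Ndufb10 of respiratory complex I (-1.07, SE 0.27), Pmvk of the mevalonate pathway (-1.01, SE 0.24), Egln3, an oxygen-sensing prolyl hydroxylase (-1.21, SE 0.25), and the stress-linked transcription factor gene Cebpb (-1.09, SE 0.26). The fatty acid elongase gene Elovl1 fell (-1.04, SE 0.26) and the acetyl-CoA carboxylase gene Acacb rose (1.11, SE 0.28). The changes of Cdc20, Ndufb10 and Elovl1 were -0.37, -0.36 and -0.27 in LSZ2 and -1.34, -1.49 and -1.50 in LSZ4. The test of a difference between the lines called none of them, and the LSZ2 changes rest on a single control array. The part of the dim LSZ4 controls was not tested. All of the genes of this paragraph lost their call with the random block (adjusted p 0.101 to 0.245) and without LSZ4 shGFP replicate 2 (0.144 to 0.260). Of the chaperone gene Dnajb9, the single call among 30 genes of the unfolded protein response, the rise was 0.97 (SE 0.21), and it was lost in the same 2 settings (0.166 and 0.207).

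Gstm2, a glutathione transferase that detoxifies electrophiles, was the only call among 40 targets of NRF2 and glutathione transferases (2.5%, beside 4.99% of all genes). It was at 0.75, 2.80 and 2.71 with shGFP and at 3.33, 4.17 and 5.04 with shSiva, and rose by 2.30 (SE 0.20, adjusted p = 0.000433). Within each line every shSiva array was higher, and LSZ2 shSiva1 replicate 2, at 3.83, stood apart from the other LSZ2 shSiva arrays.

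Of immediate early and AP-1 genes 2 of 27 rose and 1 fell, 11.1% beside 4.99% of all genes. Dusp1, a phosphatase that switches off MAP kinases, was at -2.12, -1.75 and -1.76 with shGFP and at -0.60, 0.01 and 0.58 with shSiva, and rose by 1.83 (SE 0.25, adjusted p = 0.00439). Klf4, a transcription factor of epithelial differentiation, was at 4.83, 4.88 and 4.85 with shGFP and at 2.77, 3.64 and 4.18 with shSiva. It fell by 1.42 (SE 0.22, adjusted p = 0.00821), with every shSiva array below every shGFP array, and lost its call without LSZ4 shGFP replicate 1 or 2 (0.0682 and 0.0691). Of 30 genes of MAPK output 3 rose, Spred3, Epha4 and Lif, and the adaptor gene Sh2b3 fell by 1.14 (SE 0.29). That is 13.3%, beside 4.99% of all genes. Spred3, an inhibitor of Ras signalling, was not well above background on any shGFP array and passed the filter on dim probes through shSiva arrays only. It was at least 1.33-fold higher, and the Eph receptor gene Epha4 rose by 1.46 (SE 0.32). With the random block the adjusted p of these 3 was 0.160 for Spred3, 0.170 for Epha4 and 0.219 for Sh2b3.

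Genes of the differentiated gut and epithelium gave mixed calls. Of 26 gastrointestinal markers 3 fell and 0 rose, 11.5% beside 4.99% of all genes. Ffar4 was at 2.49, 0.43 and 0.44 with shGFP and at -3.83, -1.00 and 0.40 (lowest, median, highest) with shSiva. All shSiva arrays lay below all shGFP arrays, by a narrow gap. Ffar4 fell by 2.92 (SE 0.47, adjusted p = 0.00962), by 3.57 with shSiva1 and by 2.27 with shSiva2. Alpi, the alkaline phosphatase of the intestinal brush border, fell by 2.59 (SE 0.64). Without LSZ4 shGFP replicate 1 or 2 Ffar4 and Alpi were not called (adjusted p 0.0676 to 0.212). Of 39 epithelial genes 3 rose, Krt23 (a keratin, 1.51, SE 0.29), Ehf (an ETS factor of epithelia, 1.72, SE 0.28) and Epcam (an adhesion molecule, 0.86, SE 0.18), and 2 fell, the tight junction gene Cldn3 (-2.10, SE 0.40) and the transcription factor gene Grhl2 (-0.95, SE 0.24). These 5 are 12.8%, beside 4.99% of all genes, and none was called without LSZ4 shGFP replicate 2 (adjusted p 0.0556 to 0.221). Of 16 lung markers 1 rose, 6.25% beside the same 4.99%. It was Sox9, a factor of distal airway progenitors, at 2.04 (SE 0.30), with an adjusted p of 0.0562 without that array.

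The falls beyond Siva1 that held without each array in turn were those of Aass and Ms4a3. Aass (probe at chr6:23022668-23022727), which encodes the first enzyme of lysine breakdown in mitochondria, was at -0.21, -1.13 and -1.39 with shGFP and at -3.54, -3.19 and -2.77 with shSiva. It fell by 2.34 (SE 0.18, adjusted p = 0.000183), by 2.36 with shSiva1 and by 2.32 with shSiva2, and the groups did not overlap. Ms4a3, a membrane protein of blood cell precursors, was above background on all 3 shGFP arrays and on none of the 8 shSiva arrays. It was at least 1.83-fold lower (adjusted p = 0.00360). Ms4a3 passed the filter on dim probes through shGFP arrays only, so its fall is not independent of the filter. Its call was lost after normexp background correction. Other large falls were those of Creb3l3, a membrane-bound transcription factor of liver and gut (-2.01, SE 0.33), Sgk2, a kinase (-2.15, SE 0.36), Hr, a nuclear corepressor (-2.17, SE 0.44), Otop2, a proton channel (-2.17, SE 0.53), and Fgf14, a fibroblast growth factor homologue of neurons (-2.07, SE 0.45). Lmo3, a LIM domain protein, was on no shSiva array above background and was at least 2.65-fold lower. Like Ms4a3, it passed the filter on dim probes through shGFP arrays only. These 6 lost their call with the random block (adjusted p 0.0510 to 0.205) and without LSZ4 shGFP replicate 2 (0.0772 to 0.231).

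Among the other large rises were genes best known from blood and other cell types. Skap1, Gata3, Ecscr, Gpr17, Pik3cd and Icam2 were picked for being above background on all shSiva arrays and on no shGFP array. They passed the filter on dim probes through shSiva arrays only, so this pattern and its direction come from the selection. Skap1, an adaptor of T cell receptor signalling, was at least 3.48-fold higher (adjusted p = 4.65e-05). In the same way the transcription factor gene Gata3 was at least 3.58-fold higher (adjusted p = 0.00178), Ecscr, an endothelial surface protein, at least 3.78-fold (0.00404) and Gpr17, a receptor of the oligodendrocyte lineage, at least 3.35-fold (0.00662). Gpr17 had an adjusted p of 0.0552 without LSZ4 shGFP replicate 1. Pik3cd and Icam2 were at least 5.02-fold and 3.41-fold higher, but were not called (adjusted p = 0.0810 and 0.0852). The mast cell protease genes Mcpt1, Mcpt2 and Mcpt4 rose by 3.47 (SE 0.64), 3.56 (SE 0.73) and 3.34 (SE 0.57), and are paralogs whose probes were not checked for shared sequence, so these values are uncertain. Of 8 other mast cell genes, chosen after these values were seen, Kit, Cpa3, Fcer1a, Ms4a2 and Hdc were above background on none of the 11 arrays, Tpsb2 and Tpsab1 on all 11, and Cma1 on 7 of 8 shSiva and 1 of 3 shGFP arrays. The summed linear level of all 8 was 0.601 to 2.19 in shSiva and 0.976 to 4.61 in shGFP. The neutrophil gene S100a8 was the only call of the 15 blood, endothelial and fibroblast markers tested (6.67%, beside 4.99% of all genes). It rose by 2.19 (SE 0.41), and by less than the test needs without LSZ4 shGFP replicate 1 (adjusted p = 0.0983). Pitpnm3 (4.83, SE 0.71) and Vasn (3.88, SE 0.76), a TGF-beta-binding membrane protein, completed the 12 largest rises. Without LSZ4 shGFP replicate 1 or 2 the Mcpt genes, Pitpnm3 and Vasn were not called (adjusted p 0.0503 to 0.122).

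The hairpins were also taken singly against the same 3 shGFP arrays, which the 2 comparisons share. With shSiva1 6997 genes were called (30.1%), 2269 higher (9.77%) and 4728 lower (20.4%). With shSiva2 the numbers were 2544 (11%), 1143 (4.92%) and 1401 (6.04%). Against each other the hairpins differed at 4681 genes (20.2%), a test that no shGFP array enters except for the spread. With both hairpins called, 531 genes were higher and 684 lower with each, and 207 went in opposite directions. Of the 1159 genes called over both hairpins, 137 differed between them.

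**Figure D4:**
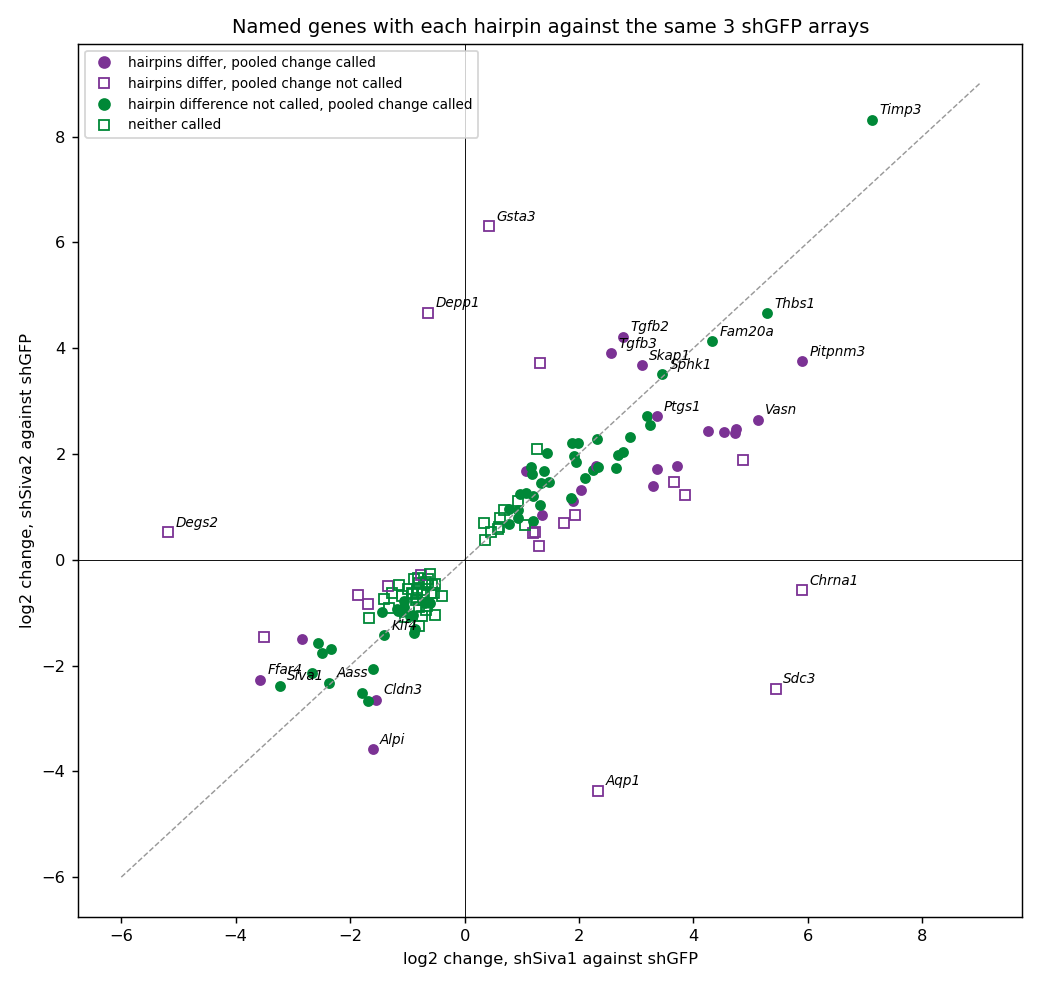
Log2 change with shSiva1 (horizontal) and with shSiva2 (vertical) against the same 3 shGFP arrays for the 143 genes named by rule, filled where the change over both hairpins was called and purple where the hairpins differed. Sphk1, Fam20a and Aass lie near the dashed line of equal change, and Gsta3, Depp1, Degs2, Chrna1, Sdc3 and Aqp1 lie far from it.

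The largest differences were of a size that the average over hairpins hides. Sdc3, a heparan sulfate proteoglycan, was at 1.52, 2.16, 2.05 and 2.63 with shSiva1 and at -5.20, -5.22, -6.80 and -5.92 with shSiva2, beside -2.18, -4.27 and -3.95 with shGFP. It was above background on all 4 shSiva1 arrays, on 2 of 3 shGFP arrays and on no shSiva2 array. It was at least 122-fold higher with shSiva1 than with shSiva2. The shGFP mean gave 2.59-fold over shSiva2, but it includes an array not above background and is not at equal line. No firm bound follows for shGFP against shSiva2. Aqp1, a water channel, differed by -6.70 (SE 0.50), with a change of 2.34 for shSiva1 and -4.36 for shSiva2. Chrna1, a subunit of the muscle acetylcholine receptor, rose by 5.90 with shSiva1 and had a change of -0.57 with shSiva2, and was above background on 1 of 3 shGFP and 2 of 4 shSiva2 arrays. Gsta3, a glutathione transferase, rose by 6.30 with shSiva2 and had a change of 0.42 with shSiva1, and was above background on 1 of 3 shGFP and 2 of 4 shSiva1 arrays. Depp1, an autophagy regulator downstream of FOXO, rose by 4.67 with shSiva2 and had a change of -0.63 with shSiva1. Degs2, a sphingolipid desaturase and hydroxylase, fell by 5.18 with shSiva1 and had a change of 0.52 with shSiva2. These 6 were picked as the largest differences between hairpins, and none was called over both.

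Taken by line, 22 genes were called in LSZ2 (0.0948%), where 4 shSiva arrays met a single control, and 1518 in LSZ4 (6.54%). The test of the difference between the lines called 2 genes (0.00862%). A named gene among these was Fzd3, a Wnt receptor, at -7.47 in LSZ2 shGFP and between -4.11 and -3.73 on the LSZ2 shSiva arrays, but between -7.34 and -6.29 on all 6 LSZ4 arrays. The gene was above background on all 4 LSZ2 shSiva arrays and on no other of the 11. In LSZ2 it was at least 2.81-fold higher with shSiva than on the single control array, and in LSZ4 it was not measured in either arm. The fitted difference of -4.01 (adjusted p = 0.0263) therefore has no measured size.

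The unselected shLacZ cells, which the rule leaves out, allow a check of the shGFP level in a fit over all 15 arrays. Between shLacZ and shGFP 3 genes were called (0.0129%), with 2573 at an unadjusted p under 0.05. The median change of all genes was -0.26 for shLacZ against shGFP, beside -0.21 for shSiva against shGFP in this fit. For shSiva against shLacZ it was -0.03, with 1681 of 23213 genes called higher and 902 lower. The shLacZ level of Sphk1, Tgfb3, Ptgs1, Gstm2 and Aass differed from shGFP by -0.14, 0.13, -0.03, -0.09 and 0.12. For Timp3 and Thbs1 it was 1.40 and 1.53 above shGFP, and for Vcam1 0.98. Against shLacZ the changes in shSiva were 6.30 for Timp3, 3.38 for Thbs1, 3.57 for Sphk1 and -2.47 for Aass. The shLacZ arrays share the slide of the shGFP arrays, lacked puromycin and carry another vector, so this does not set slide apart from hairpin.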

How the data were processed

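Single-colour Agilent arrays of 15 RNA samples were deposited, and 11 were used. The authors deposited spot intensity values that Feature Extraction 10.7.3.1 had background-subtracted and detrended, per the file headers, with probe coordinates in mm9. A deposited table of log2 values for the same arrays served as an alternative. Control and outlier spots were dropped and repeated spots averaged by probe. The tested value was log2 intensity less the 75th percentile of the array. Probes well above background on at least 3 of 11 arrays and missing on at most 2 were kept (32676 of 55681), with the brightest probe per gene, which left 23213 genes. A gene above background in a single arm passed through that arm alone, so its call and direction are not independent of this filter. Of the probes, 26582 were named through their accession and the rest keep the name in the file.

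The test was limma 3.58.1 (R 4.3.3) with line as a covariate and Benjamini-Hochberg adjustment at 0.05. In simulated data with these arrays it called 30 of 100 genes changed by 1 log2 unit and 77 of 100 changed by 2. The simulated arrays varied independently, whereas arrays of a line and hairpin group were alike (consensus correlation 0.373). These rates therefore do not cover such likeness. "At least" folds set the dim arm at the lowest signal measured well above background. They compare plain means of arrays, and the brighter arm can include arrays not above background. Those over both lines are not at equal line. Named genes were Siva1, the 12 largest rises and falls above background, and up to 4 members per list with the smallest p. Also named were the 3 largest hairpin and line differences and 6 genes measured in 1 arm only, and called list members are given. The rises and falls also had to have every line and hairpin group mean on that side of the shGFP mean of their line. Their agreement in direction across hairpins and lines therefore comes from the selection. The comparison and its gene lists were chosen with earlier results of these data known. The labels do not say whether the 2 LSZ4 shGFP samples are replicates or separate hairpins (they are treated as replicates), nor whether replicates are separate cultures, so p-values may measure technical spread. Their replicate numbers were not shown to pair the samples. The number of arrays limits the precision. Alternatives covered background correction, scaling, filters, probe choice, blocks, weights and leaving out each array. The brightness covariate and the fit without both LSZ4 shGFP arrays were chosen after seeing the data. Some genes are not reported here.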

Additional observations from a re-analysis of the deposited data

Results flagged for a closer look

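Of 306 groups of 4 shSiva arrays of a line, 11 had an array far from the other 3, and chance gives about 1 in 20. In LSZ2 the array shSiva1 replicate 2 stood apart for Fadd (1.69), Pmvk (5.17), Acacb (-1.61), Gstm2 (3.83) and Psmb9 (-1.44), in each case above the other LSZ2 shSiva arrays. The array LSZ2 shSiva1 replicate 1 stood below the others for Lss (1.80), a sterol synthesis enzyme, Rrp12 (1.07), a ribosome biogenesis factor, and Hopx (-6.22), a marker of alveolar type I cells. In LSZ4, Timp3 was low on shSiva1 replicate 2 (2.14), Lmo3 was high on shSiva2 replicate 2 (-4.19), and Epcam was low on shSiva2 replicate 1 (-3.63). All are log2 levels less the 75th percentile of the array.

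The fitted change of Fzd3 differed between lines by -4.01 (limma interaction of line and hairpin arm). No LSZ4 array and no shGFP array measured the gene above background and LSZ2 has a single control, so the size of this difference is not known.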

How the results depend on the processing

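Only 3 control arrays, 2 of them dim, limit the calls, and dim probes limit the folds. The pooled count was 1159. It was 149 with normexp, 1838 with quantile scaling, 482 with no filter on dim probes, 158 with the random block, 0 with 1 mean per group (limma, 2657 at an unadjusted p under 0.05), 1850 with all 15 arrays, 5880 with array weights, 83 with a minimum change of 0.5 (treat) and 9 without both LSZ4 shGFP arrays. The share of calls that were higher was 39.3%, but 66.4% with normexp, 53.6% with median scaling, 51.4% with the percentile over probes detected on all arrays and 49.3% with brightness as a covariate; these 4 moved the median of all genes from -0.20 to -0.09, -0.11, 0.00 and -0.06, and quantile scaling moved it to -0.04. With the replicate number as a block, which the data do not show to pair samples, the pooled count was 2649, that of shSiva2 4538, that of LSZ4 3356, that of LSZ2 9 and that of the line difference 1.

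For shSiva1 (6997) the counts were 2750 with normexp, 3660 with the random block, 1006 with group means, 13421 with weights and 1401 with treat. For shSiva2 (2544) they were 542, 1136, 39, 6808 and 480 in the same order, 3886 with quantile scaling, 1597 without the filter and 6296 with brightness. For the hairpin difference (4681) they were 2383 with normexp, 1168 with group means, 8918 with weights, 9117 with brightness and 1683 with treat. For LSZ4 (1518) they were 175 with normexp, 420 without the filter, 2326 with probes detected on all arrays, 79 with the random block, 0 with group means, 9049 with weights, 129 with brightness (99 higher, 30 lower) and 93 with treat. For LSZ2 (22) they were 4, 46, 11, 11, 0, 104, 72 and 9 in that order. The 2 line differences became 0 with normexp, the mean of all probes, the random block and group means, 1 with probes detected on all arrays or all 15 arrays, 4 with the authors' value table or weights, and 5 without the filter.

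Leaving out each array gave 114 to 1783 pooled calls, 3051 to 11076 for shSiva1, 956 to 4291 for shSiva2, 32 to 8301 for LSZ4, 9 to 21 for LSZ2 and 0 to 3 for the line difference. Siva1 fell by 2.66 with group means (adjusted p = 0.270) and its change was -2.07 without both LSZ4 shGFP arrays (adjusted p = 0.678), and kept its call otherwise. Signs turned for genes that were not called: Fzd3 ranged from -0.48 to 1.53 over the arrays left out, Sdc3 was -0.46 with brightness, and Trp53, Cyc1, Ndufs7 and Lss were 0.026, 0.062, 0.028 and 0.11 without both LSZ4 shGFP arrays. The causes were not tested.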
